A study of Mus musculus with 16 samples.

Results

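Among 15 abdominal tumors of mice bearing gastric carcinoma, 4 tumors stood at the top of a score of T cell and cytotoxic genes, and these 4 were compared with the other 11 over all genes. The 4 were chosen by their own expression values: each tumor was scored by averaging log2(CPM + 0.5) over 6 genes, where CPM is the count of a gene scaled to the total count of its library. The scoring genes were Cd3e, a chain of the T cell receptor complex, Cd8a and Cd8b1, the chains of the CD8 co-receptor, Gzmb and Prf1, the killing proteins granzyme B and perforin, and Nkg7, a protein of cytotoxic granules. The 4 highest-scoring tumors were IL-33 replicate 4 (score 4.42), vehicle replicate 7 (4.36), IL-33 replicate 8 (4.14) and IL-33 replicate 3 (3.55), and values of the 4 tumors are given below in this order. The next tumor, vehicle replicate 1, scored 2.95 and was counted among the other 11, whose scores went down to 1.13. Since the measured values themselves formed the groups, the 6 scoring genes are described and were not counted as findings, and a test of another gene asks only whether it moved with the score beyond the spread between tumors.

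The tumors came from mice of the inbred 615 line, which at the age of 6 weeks received 500000 MFC cells into the peritoneal cavity. MFC is a mouse forestomach carcinoma cell line, and genotype was given as wild type (WT). The vehicle group (8 tumors) was given PBS and the IL-33 treatment group (8 tumors) was given the cytokine interleukin-33 at 20 μg/kg every 2 days. All tumors therefore share 1 implanted cell line, host and immune cells were not sorted from the tumor cells, and the labels do not tie tumors to mice. The study's methods give 4 or 5 mice per group for this tumor model, fewer than the 8 tumors sequenced per group. Its survival experiment in this model used more mice per group than that. Some tumors may share a mouse, which is not stated. The p-values measure the spread between tumors and would be too small if some tumors share a mouse. IL-33 replicate 7 was left out, because genes of the female reproductive tract summed to 2047 CPM there, against 57.6 to 122 CPM in the 15 tumors compared.

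Tumors are often described as T cell-inflamed where T cells, their interferon gamma and the genes that interferon gamma turns on are found together, and as non-inflamed where they are scarce. Interferon gamma turns on chemokines that attract T cells through the receptor CXCR3, guanylate-binding proteins, the machinery that loads peptides on MHC molecules, and ligands such as PD-L1 that restrain T cells. Cross-presenting dendritic cells, which carry Xcr1 and make interleukin-12, are known for priming CD8 T cells and for supporting them inside tumors.

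Total counts lay between 17110516 and 24288893 in the 4 tumors and between 14139268 and 24290794 in the other 11. Libraries were compared in pairs within each treatment group, and no such pair agreed within sampling noise. The lowest chi-square per degree of freedom was 8.79, between IL-33 replicate 4 and IL-33 replicate 8, both among the 4 highest-scoring tumors. The 10 most abundant genes took 4.71% to 5.17% of the counts in the 4 tumors and 5.47% to 9.07% in the 11, so that the classes did not overlap in this measure. Counts on mitochondrial genes made up 1.91% to 2.28% in the 4 tumors and 1.51% to 3.57% in the 11. Vehicle replicate 4 stood apart among the 11, with a TMM normalization factor of 0.646 against 0.907 to 1.10 in the others and with hemoglobin and other red cell genes summing to 12805 CPM. Of the epithelial markers expected of a carcinoma line, Krt8 was measured at 181 to 975 CPM in the 15 tumors, while Epcam did not exceed 2.40 CPM and Krt18 did not exceed 1.83 CPM.

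The score was compared between the treatments, and the difference was within the spread of the tumors. Vehicle tumors scored 2.60 ± 0.846 (SD, n = 8) and IL-33 tumors scored 2.87 ± 1.19 (SD, n = 7), which is 0.268 higher (two-sided exact permutation test over 6435 assignments, p = 0.618). Of the 4 highest-scoring tumors, 1 was among the 8 vehicle tumors and 3 were among the 7 IL-33 tumors (two-sided Fisher's exact test, p = 0.282). IL-33 tumors stood at both ends of the order, since IL-33 replicate 4 had the highest score and IL-33 replicate 6 the lowest.

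**Figure D1:**
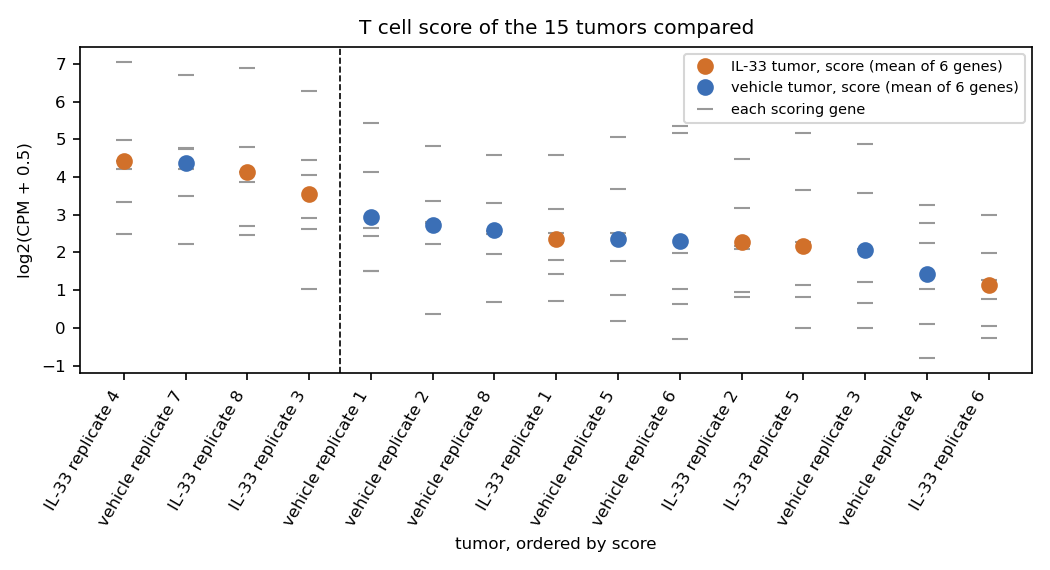
The T cell score of each of the 15 tumors (filled circles, vehicle blue and IL-33 orange) and its 6 scoring genes (grey ticks), on the log2(CPM + 0.5) scale, ordered by score. The dashed line separates the 4 tumors with scores from 3.55 to 4.42 from the 11 with scores from 1.13 to 2.95.

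The scoring genes themselves did not split the tumors equally. Cd3e was measured at 9.53, 10.7, 6.05 and 5.63 CPM in the 4 tumors and from 0.541 to 4.17 CPM (median 1.27) in the 11. Gzmb was at 132, 105, 118 and 77.3 CPM in the 4 tumors and from 7.52 to 42.6 CPM (median 27.96) in the 11, so that the classes were separate for both genes. Cd8b1 and Prf1 overlapped. For Cd8b1 the 4 tumors had 5.08, 4.17, 4.98 and 1.53 CPM, and vehicle replicate 1 had 2.37 CPM, above IL-33 replicate 3. For Prf1 the 4 tumors had 30.98, 26.5, 27.1 and 21.3 CPM, and vehicle replicate 6, which scored below them, had 35.3 CPM. This same tumor carried the highest levels of the granzymes Gzmc, Gzmd, Gzme and Gzmf, with Gzmf at 81.9 CPM against 16.3, 13.6, 11.1 and 5.96 CPM in the 4 tumors.

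Genes of T and natural killer (NK) cells that the score did not use are given as values, because they come from the cells the score was built on. Cd3g, another chain of the T cell receptor complex, was at 10.5, 13.03, 8.44 and 8.36 CPM in the 4 tumors and from 0.487 to 3.86 CPM (median 2.26) in the 11. Ifng, the interferon gamma gene, was at 2.104, 3.32, 1.32 and 1.09 CPM in the 4 tumors and from 0 to 0.92 CPM (median 0.148) in the 11. In both genes each of the 4 tumors lay above each of the 11. Over all genes tested outside the score, 5.41% had this separation (4.02% after TMM scaling). Of 23 T cell lineage genes, 18 had it and the median log2 fold change was 1.92. Their summed level was 102 to 142 CPM in the 4 tumors and 11.2 to 52.0 CPM in the 11 (median 31.4). Of 24 cytotoxic effector genes 16 were separate, with a median log2 fold change of 1.95. The median log2 fold change was 1.28 over the 11 NK cell genes tested, 2.01 over the 13 genes of CD4 and regulatory T cells, and 1.30 over the 11 checkpoint receptors. In CPM, 6 of the 13 CD4 and regulatory T cell genes were separate, and 3 after TMM scaling. The sum of that list overlapped, at 265 to 444 CPM in the 4 tumors and 139 to 602 CPM (median 408) in the 11. Checkpoint receptors summed to 106 to 190 CPM and 60.9 to 165 CPM, which also overlapped. Ncr1, an activating receptor of NK cells, was at 7.13, 6.12, 5.56 and 6.99 CPM in the 4 tumors and from 0.422 to 1.95 CPM (median 0.933) in the 11, but the summed level of the NK cell list overlapped, at 191 to 249 CPM in the 4 tumors and 122 to 249 CPM in the 11. Among checkpoint receptors, Lag3 was at 11.9, 15.3, 12.2 and 7.65 CPM and from 1.27 to 5.33 CPM (median 2.41) in the 11, whereas Havcr2 (TIM-3), which myeloid cells also carry, was at 30.2, 21.04, 38.2 and 11.1 CPM and from 14.6 to 115 CPM (median 36.8) in the 11.

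Over all genes, 15797 genes outside the score were tested, with treatment as a covariate. By the quasi-likelihood test of edgeR with Benjamini-Hochberg adjustment and a threshold of 0.05, 1054 genes were higher in the 4 highest-scoring tumors (6.67% of those tested) and 744 were lower (4.71%). The median log2 fold change of all genes was -0.02. Of the genes higher, 54 belonged to the T and NK cell lists. Ranked by p, the first 12 genes higher outside the T and NK cell lists were Slfn5, Ass1, BC147527, Daxx, Fgl2, Ctsh, Rtp4, Cyth4, Adap1, Sema4a, Il21r and Il10ra, and in all 12 each of the 4 tumors lay above each of the 11, a separation found in 5.41% of all genes (4.02% after TMM scaling). The first 12 genes lower were Map3k6, Klf9, Peli2, Mlph, Chrd, Kremen1, Pax9, Lrrn4cl, Dusp1, Plekha6, Mmp8 and Per1, of which 2 were separate downward, as were 0.513% of all genes (1.44% after TMM scaling). Both sets of 12 were picked by p in this same comparison, so their separation follows in part from that choice. The counts depended on single tumors: 435 genes were higher and 232 lower without vehicle replicate 7, and 2019 were higher and 1878 lower without vehicle replicate 4. The removal of IL-33 replicate 4 gave 692 higher and 388 lower, and fewer genes were lower without IL-33 replicate 3 (348) or IL-33 replicate 6 (477).

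**Figure D2:**
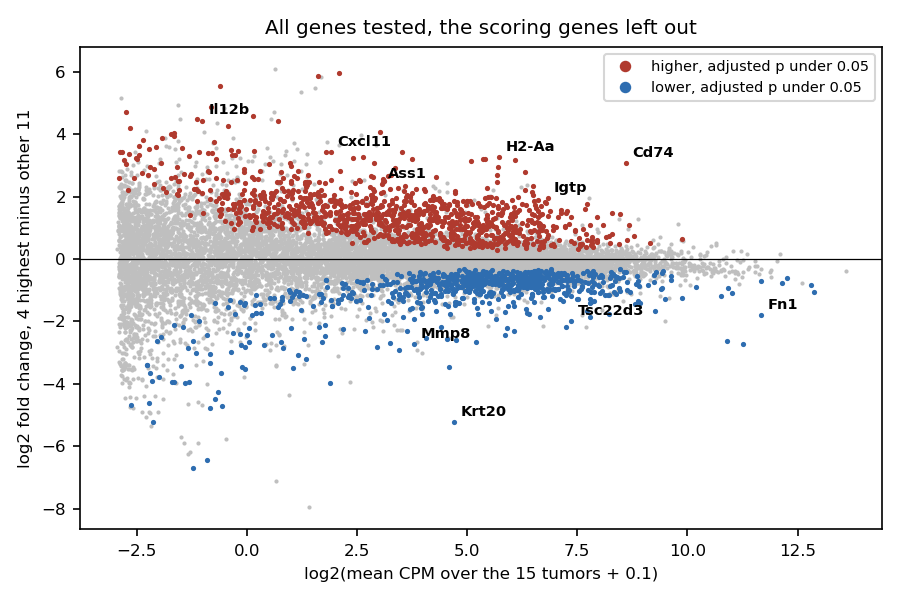
Each point is a gene, with log2 of its mean CPM over the 15 tumors plus 0.1 on the x axis and its log2 fold change (4 highest-scoring tumors minus the other 11, edgeR) on the y axis. The 1054 genes higher (red) reach further from 0 at low levels, and among abundant genes the 744 lower (blue) include Fn1.

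Leukocyte genes as a whole were higher in the same 4 tumors, and every immune list below is to be read beside them. Ptprc, which encodes CD45 on the surface of blood leukocytes, was at 306, 228, 246 and 161 CPM in the 4 tumors and from 11.6 to 144 CPM (median 63.7) in the 11, so that only vehicle replicate 2, at 144 CPM, came near. A list of 10 pan-leukocyte genes, chosen after values had been seen, summed to 1320 to 1646 CPM in the 4 tumors and to 332 to 964 CPM in the 11 (median 584), with a median log2 fold change of 1.35. The list holds Cyth4, one of the 12 genes higher with the smallest p. Pan-leukocyte genes are also carried by T and NK cells, on which the score was built. In bulk tumor RNA, more leukocytes and more RNA of a gene per leukocyte cannot be told apart, and the part of leukocyte content in the results below was not tested. Vehicle replicate 2 had the highest level of the 11 in 650 of the 1054 genes higher.

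Genes of the interferon gamma response were higher in the 4 tumors: 16 of 24 passed the test upward and 0 downward, with a median log2 fold change of 1.63. Cxcl9, a chemokine that attracts T cells through CXCR3 (GRCm38 chr5:92321347-92328079, minus strand), was at 93.7, 197, 53.98 and 108 CPM in the 4 tumors and from 2.27 to 66.2 CPM (median 12.9) in the 11 (log2 fold change 3.22 ± 0.47, adjusted p = 0.0014). Vehicle replicate 2 was the only tumor of the 11 within the range of the 4, and the next had 19.3 CPM. The other CXCR3 ligands were separate between the classes: Cxcl10 was at 114, 186, 69.5 and 187 CPM in the 4 tumors and from 3.82 to 56.9 CPM (median 19.9) in the 11 (log2 fold change 2.96 ± 0.43, adjusted p = 0.0014). Cxcl11 was at 6.95, 14.7, 4.57 and 15.3 CPM and from 0.162 to 3.86 CPM (median 0.988) in the 11 (log2 fold change 3.43 ± 0.48, adjusted p = 0.00128). The receptor Cxcr3 was at 5.96, 4.97, 4.41 and 4.21 CPM in the 4 tumors and from 0.216 to 1.76 CPM (median 0.674) in the 11.

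Other genes of the interferon gamma pathway differed in how they moved. Irf1, a transcription factor that interferon gamma induces, was at 189.8, 255, 147 and 206 CPM in the 4 tumors and from 32.5 to 179.8 CPM (median 57.9) in the 11 (log2 fold change 1.70 ± 0.28, adjusted p = 0.00219), and vehicle replicate 2 again lay among the 4. The receptor chains and kinases upstream did not pass: log2 fold changes were 0.11 for Ifngr1, 0.24 for Ifngr2 and 0.20 for Jak2. Socs1, a brake that interferon gamma induces on its own signal, was higher (log2 fold change 1.63 ± 0.25, adjusted p = 0.0018). Ubd, a ubiquitin-like protein induced by interferon gamma, had the largest fold change of the list, at 14.3, 48.2, 5.89 and 24.97 CPM in the 4 tumors and from 0.27 to 14.6 CPM (median 1.04) in the 11 (log2 fold change 4.08 ± 0.72, adjusted p = 0.00302). Nos2, the inducible nitric oxide synthase, did not pass (log2 fold change -0.72 ± 0.62, adjusted p = 0.51), and its highest level, 42.0 CPM, was in vehicle replicate 2.

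Interferon-inducible GTPases, which attack the vacuoles of intracellular parasites, were higher in 18 of 20 members tested and lower in 0, with a median log2 fold change of 1.98. Igtp was at 236, 273, 183 and 252 CPM in the 4 tumors and from 18.5 to 177 CPM (median 67.97) in the 11 (log2 fold change 1.96 ± 0.31, adjusted p = 0.0019). Ifi47 was at 138, 189.7, 110.2 and 173 CPM and from 16.2 to 102 CPM (median 42.4) in the 11 (log2 fold change 1.999 ± 0.28, adjusted p = 0.00128). In both, each of the 4 tumors lay above each of the 11. Gbp4 had the largest fold change of the list, at 115, 125, 71.6 and 95.7 CPM in the 4 tumors and from 4.002 to 115 CPM (median 10.4) in the 11 (log2 fold change 3.22 ± 0.70, adjusted p = 0.0083). Vehicle replicate 2 had the 115 CPM and lay among the 4, while the next of the 11 had 12.3 CPM. In 6 of the 20 genes the classes were separate, and the members share much sequence, so that reads may be split among near-identical copies such as Tgtp1 and Tgtp2. The count was 15 of 20 without vehicle replicate 7, and 19 of 20 among the IL-33 tumors alone.

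The promoters of some of these genes are shown because they carry short letters known from interferon-induced genes, and they were chosen for holding them. Windows of Cxcl9 and Ifi47 and a second window of Irf1 held neither motif. Sequences are the 250 bases before the annotated start in RefSeq (GRCm38.p6), 5′ to 3′ on the strand of the gene. Capitals mark a match to the gamma-activated site (GAS, TTCNNNGAA), through which interferon gamma acts, or to the interferon-stimulated response element (ISRE, a pair of GAAA set 2 bases apart), bound by interferon regulatory factors, on either strand.
Igtp (chr11:58199306-58199555, plus strand; GAS and ISRE): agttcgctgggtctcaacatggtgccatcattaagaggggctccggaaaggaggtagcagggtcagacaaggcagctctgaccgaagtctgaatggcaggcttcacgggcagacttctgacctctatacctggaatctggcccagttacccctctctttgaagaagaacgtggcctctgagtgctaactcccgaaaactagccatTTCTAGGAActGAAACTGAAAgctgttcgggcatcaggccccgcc
Gbp2 (chr3:142620413-142620662, plus strand; ISRE): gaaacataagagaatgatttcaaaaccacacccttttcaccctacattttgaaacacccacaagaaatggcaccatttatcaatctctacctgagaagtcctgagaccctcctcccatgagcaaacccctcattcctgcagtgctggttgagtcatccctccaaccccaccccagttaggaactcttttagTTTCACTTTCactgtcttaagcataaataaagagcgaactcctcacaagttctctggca
Cxcl10 (chr5:92348890-92349139, minus strand; ISRE): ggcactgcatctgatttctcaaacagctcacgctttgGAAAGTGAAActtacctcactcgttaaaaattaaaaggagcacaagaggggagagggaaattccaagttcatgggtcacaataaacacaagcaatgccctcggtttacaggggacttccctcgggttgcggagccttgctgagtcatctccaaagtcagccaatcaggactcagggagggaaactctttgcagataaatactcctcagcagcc
Irf1 (chr11:53769764-53770013, plus strand; GAS): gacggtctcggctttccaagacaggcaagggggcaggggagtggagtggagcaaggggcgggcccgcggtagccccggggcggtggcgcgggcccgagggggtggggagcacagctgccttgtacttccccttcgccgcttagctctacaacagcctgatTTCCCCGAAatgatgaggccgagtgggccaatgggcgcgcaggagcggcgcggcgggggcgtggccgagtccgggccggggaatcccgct
H2-T23 (chr17:36032702-36032951, minus strand; ISRE): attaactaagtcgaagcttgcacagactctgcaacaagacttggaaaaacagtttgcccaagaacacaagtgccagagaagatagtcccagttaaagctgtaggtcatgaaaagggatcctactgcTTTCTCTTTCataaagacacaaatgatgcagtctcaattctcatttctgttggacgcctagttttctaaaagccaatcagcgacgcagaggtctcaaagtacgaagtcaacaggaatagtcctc

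In Igtp the GAS began 45 bases and the ISRE 34 bases before the start. The ISRE began 59 bases before the start in Gbp2, 124 in H2-T23 and 213 in Cxcl10, and the GAS of Irf1 began 90 bases before it. Of the 22 GTPases listed, 11 had a RefSeq window, and 10 of these held the ISRE letters and 6 the GAS letters. Of 17 type I interferon genes with a window, 8 held the ISRE letters and 3 the GAS letters. Of 18 interferon gamma genes with a window, 3 held the ISRE letters and 4 the GAS letters, of 18 MHC class I genes 3 and 1 did, and of 10 MHC class II genes 1 and 1 did. The glucocorticoid-induced list, described further on and lower in the 4 tumors, held the GAS letters in 5 of 14 windows and the ISRE letters in 2. Among all 27025 genes with a window, 3.46% held the ISRE letters and 8.13% the GAS letters. Among the 11995 genes tested that had a window, 3.385% and 7.378% did. Of the 801 genes higher that had a window, 11.4% held the ISRE letters and 11.7% the GAS letters, and of the 573 genes lower, 1.57% and 8.55% did. These are matches of letters, described without a test, and a window can hold both.

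Genes best known for induction by type I interferon were higher and mostly without overlap. Of 24 tested, 22 were higher and 0 lower, the median log2 fold change was 1.36, and in 21 each of the 4 tumors lay above each of the 11. Rtp4, a chaperone protein that restricts viruses, was at 92.6, 103, 76.7 and 125 CPM in the 4 tumors and from 10.3 to 52.2 CPM (median 28.2) in the 11 (log2 fold change 1.97 ± 0.26, adjusted p = 0.00128). Isg15, a ubiquitin-like modifier, was at 159.96, 213, 151 and 287 CPM and from 19.1 to 106 CPM (median 57.5) in the 11 (log2 fold change 1.89 ± 0.36, adjusted p = 0.00462). Cmpk2, a mitochondrial nucleotide kinase, was at 45.1, 31.9, 34.1 and 50.5 CPM and from 2.54 to 17.7 CPM (median 10.5) in the 11 (log2 fold change 2.02 ± 0.36, adjusted p = 0.00337). In these 3 genes IL-33 replicate 3 was the highest of the 4 although it had the lowest T cell score among them. The members that did not pass were Oasl1 (log2 fold change 0.19) and Bst2 (0.97), and interferon gamma induces many genes of this list as well. Leaving vehicle replicate 7 out, 17 of the 24 were higher.

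MHC class I genes moved by less, and unequally. Of 21 genes tested 12 were higher, with a median log2 fold change of 0.79. The nonclassical molecule H2-T23 (Qa-1) was at 296, 333, 263 and 335 CPM in the 4 tumors and from 79.7 to 162 CPM (median 107) in the 11 (log2 fold change 1.33 ± 0.18, adjusted p = 0.00128). Tapbp, the chaperone tapasin that holds class I molecules at the peptide transporter, was at 434, 510.2, 367 and 487 CPM and from 132 to 321 CPM (median 201) in the 11 (log2 fold change 1.10 ± 0.15, adjusted p = 0.00128), and for both genes the classes were separate. The immunoproteasome subunit Psmb10 passed with more spread, at 203, 313, 157 and 358 CPM and from 36.8 to 227 CPM (median 75.98) in the 11 (log2 fold change 1.57 ± 0.44, adjusted p = 0.0306). B2m, the shared light chain, was at 2879, 2959, 2854 and 3242 CPM in the 4 tumors and from 1646 to 2565 CPM (median 2143) in the 11 and did not pass (log2 fold change 0.26 ± 0.12, adjusted p = 0.192). The classical heavy chain H2-K1 did not pass either (log2 fold change 0.61 ± 0.26, adjusted p = 0.151). For both B2m and H2-K1 each of the 4 tumors was above each of the 11 in CPM, which is without TMM scaling. Of the 21 class I genes, 12 were separate in CPM and 5 after TMM scaling. The count of class I genes higher was 2 without vehicle replicate 7 and 18 without vehicle replicate 4.

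MHC class II genes had larger fold changes and little separation. Of 12 tested 9 were higher, with a median log2 fold change of 2.16, and in 1 gene (Ctss) the classes were separate. Cd74, the invariant chain, was at 1016, 1435, 717 and 948 CPM in the 4 tumors and from 10.9 to 937 CPM (median 87.4) in the 11 (log2 fold change 3.07 ± 0.81, adjusted p = 0.0241). H2-Aa was at 137, 224, 90.99 and 134 CPM and from 2.05 to 123 CPM (median 9.14) in the 11 (log2 fold change 3.26 ± 0.83, adjusted p = 0.0193). Ciita, the regulator that turns on class II genes, was at 21.6, 14.98, 15.4 and 11.9 CPM and from 0.216 to 18.9 CPM (median 1.04) in the 11 (log2 fold change 3.27 ± 0.94, adjusted p = 0.0352). In all 3 genes vehicle replicate 2 lay among the 4 tumors, and the next of the 11 had at most 134 CPM of Cd74, 15.9 of H2-Aa and 1.82 of Ciita. B cells also carry class II molecules, and vehicle replicate 2 had the highest summed level of B cell genes, 119.9 CPM, a difference whose part in these values was not tested. Without vehicle replicate 7, 1 class II gene was higher, while the median log2 fold change was 2.80.

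**Figure D3:**
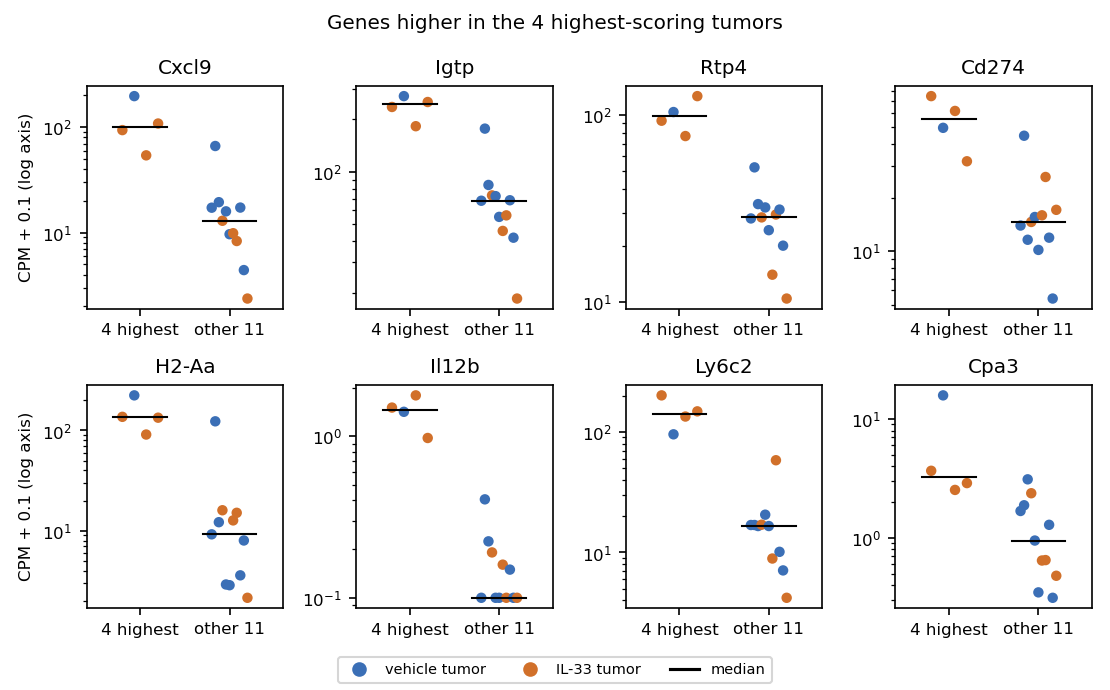
CPM plus 0.1 on a log axis for 8 genes in the 4 highest-scoring tumors and the other 11, 1 point per tumor (vehicle blue, IL-33 orange), with the median as a line. Igtp, Rtp4, Il12b and Ly6c2 are separate between the classes, vehicle replicate 2 of the 11 lies among the 4 tumors for Cxcl9, Cd274 and H2-Aa, and the highest point for Cpa3 is vehicle replicate 7.

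Ligands of checkpoint receptors were higher in 7 of 13 tested, with a median log2 fold change of 0.88. Cd274, which encodes PD-L1, was at 74.6, 49.4, 61.5 and 31.97 CPM in the 4 tumors and from 5.304 to 44.6 CPM (median 14.5) in the 11 (log2 fold change 1.49 ± 0.36, adjusted p = 0.0166). Pdcd1lg2, which encodes PD-L2, was at 1.52, 6.12, 1.69 and 2.24 CPM and from 0 to 2.51 CPM (median 0.136) in the 11 (log2 fold change 3.48 ± 0.87, adjusted p = 0.0184). Vehicle replicate 2 exceeded at least 1 of the 4 tumors in both. Vsir, which encodes VISTA, was separate, at 146, 142, 134 and 137 CPM and from 46.8 to 86.9 CPM (median 70.01) in the 11 (log2 fold change 0.88 ± 0.13, adjusted p = 0.00176). The members that did not pass included Pvr (log2 fold change -0.87) and Ido1 (log2 fold change 1.14 ± 0.46, adjusted p = 0.122), and the largest Ido1 level, 165 CPM, was in vehicle replicate 2. The count of ligands higher was 1 without vehicle replicate 7. Of 16 mouse counterparts of a human T cell-inflamed signature, which shares Cxcl9, Cd274 and others with the lists above, 12 were higher and the median log2 fold change was 1.67, but 5 of the 16 are also in the T cell, cytotoxic or checkpoint receptor lists, and without vehicle replicate 7 the count was 4.

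Dendritic cell genes were higher in 9 of 16 tested, with a median log2 fold change of 1.79. Xcr1, the chemokine receptor of cross-presenting dendritic cells, was at 6.37, 4.802, 5.81 and 2.84 CPM in the 4 tumors and from 0.0707 to 4.598 CPM (median 0.241) in the 11 (log2 fold change 2.97 ± 0.81, adjusted p = 0.0267), where vehicle replicate 2 had 4.598 CPM and no other tumor exceeded 0.954 CPM. Flt3, the receptor for their growth factor, was at 2.81, 2.17, 2.92 and 2.404 CPM and from 0.0617 to 1.23 CPM (median 0.296) in the 11 (log2 fold change 2.20 ± 0.50, adjusted p = 0.0115). Siglech, a surface marker of plasmacytoid dendritic cells, was at 5.44, 2.86, 3.99 and 2.896 CPM and from 0 to 0.981 CPM (median 0.302) in the 11 (log2 fold change 3.05 ± 0.53, adjusted p = 0.00262). Clec9a did not move with Xcr1: it was at 3.21, 2.92, 2.0997 and 1.58 CPM in the 4 tumors and from 0.707 to 4.08 CPM (median 2.82) in the 11 (log2 fold change -0.29) and did not pass. The count was 2 of 16 without vehicle replicate 7 and 7 of 16 among the IL-33 tumors alone.

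Among genes of mature dendritic cells, 9 of 16 were higher, with a median log2 fold change of 0.81. Il12b, a subunit of interleukin-12, was at 1.403, 1.31, 1.69 and 0.874 CPM in the 4 tumors and from 0 to 0.307 CPM (median 0) in the 11 (log2 fold change 4.44 ± 0.78, adjusted p = 0.00285), which is 104 reads in the 4 libraries and 12 in the 11. Cd40, through which T cells license dendritic cells, was at 11.6, 18.1, 7.62 and 20.4 CPM and from 0.595 to 6.56 CPM (median 2.41) in the 11 (log2 fold change 2.50 ± 0.40, adjusted p = 0.00204). Ccr7, the receptor for migration to lymph nodes, was at 3.27, 4.69, 3.91 and 6.01 CPM and from 0.282 to 2.698 CPM (median 0.636) in the 11 (log2 fold change 2.19 ± 0.53, adjusted p = 0.0151). All 3 genes were separate between the classes. Il15, a growth factor of CD8 T and NK cells, was higher (log2 fold change 1.28 ± 0.25, adjusted p = 0.00493), with vehicle replicate 2 above the lowest of the 4. The count of these was 3 without vehicle replicate 7.

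B cell and plasma cell genes divided the 4 tumors among themselves. Ms4a1, which encodes the B cell protein CD20, was at 5.96, 0.114, 4.45 and 0.601 CPM in the 4 tumors, and Mzb1, a plasma cell protein of the endoplasmic reticulum, was at 63.2, 2.97, 56.4 and 13.4 CPM. IL-33 replicates 4 and 8 were high for both genes, and vehicle replicate 7 and IL-33 replicate 3 were low. Of 14 B cell genes tested 1 was higher (Bank1), with a median log2 fold change of 1.67, and Ms4a1 did not pass (log2 fold change 2.74 ± 1.87, adjusted p = 0.39). The B cell list summed to 40.0 to 94.7 CPM in the 4 tumors and to 7.68 to 119.9 CPM in the 11, and without vehicle replicate 2, the highest, 5 of the 14 were higher. Of 13 plasma cell genes 1 was higher (Tnfrsf13b) and 1 lower (Sdc1), with a median of 1.28. Of 13 genes of lymphoid chemokines and high endothelial venules 1 was higher (Ltb), the median was 0.88, and Ccl21a and Glycam1, which mark lymph node tissue, did not exceed 0.858 CPM in the 4 tumors. The single genes called in these lists are near the shares over all genes, 6.67% higher and 4.71% lower.

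Monocyte and macrophage genes did not move as a block. Some T cells also carry Ly6c2 and Ccr2, and the part of T cells in their levels was not tested. Ly6c2, a marker of inflammatory monocytes, was at 201, 95.4, 134 and 148 CPM in the 4 tumors and from 4.11 to 58.1 CPM (median 16.5) in the 11 (log2 fold change 2.69 ± 0.44, adjusted p = 0.00219). Ccr2, through which monocytes leave the blood, was at 22.6, 22.7, 15.2 and 28.03 CPM and from 2.16 to 13.1 CPM (median 6.83) in the 11 (log2 fold change 1.65 ± 0.34, adjusted p = 0.00665), and for both genes the classes were separate. Of 11 monocyte genes tested 5 were higher and 2 were lower, Fn1 and Chil3, and without vehicle replicate 7 the counts were 5 and 0. Of 18 macrophage genes 7 were higher and 0 lower, with a median log2 fold change of 0.77: Adgre1 (F4/80) was at 116, 139, 98.5 and 106 CPM and from 9.48 to 70.9 CPM (median 46.2) in the 11 (log2 fold change 1.27 ± 0.31, adjusted p = 0.0166). Fcgr1, the high-affinity receptor for IgG, was at 98.01, 108, 80.1 and 149 CPM and from 11.2 to 46.4 CPM (median 32.7) in the 11 (log2 fold change 1.70 ± 0.27, adjusted p = 0.00197). Without vehicle replicate 7, 4 of the 18 were higher.

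Markers of alternatively activated macrophages did not follow. Of 15 tested, 2 were higher (Il10 and Pdcd1lg2) and 1 was lower (Chil3), with a median log2 fold change of 0.41 that turned negative in 3 of the other analyses. Mrc1 (CD206) was at 51.96, 206, 45.7 and 233 CPM in the 4 tumors and from 62.7 to 332 CPM (median 211) in the 11 (log2 fold change -0.45 ± 0.47, adjusted p = 0.598). Cd163 was at 11.8, 56.8, 6.67 and 27.2 CPM and from 6.13 to 72.6 CPM (median 26.3) in the 11 (log2 fold change -0.17 ± 0.49, adjusted p = 0.867). Arg1, the arginase of such macrophages, was at 18.001, 18.7, 18.98 and 21.1 CPM and from 3.99 to 58.3 CPM (median 16.97) in the 11 and did not pass (log2 fold change -0.38 ± 0.56, adjusted p = 0.726). Clec10a was at 5.08, 38.9, 1.73 and 46.2 CPM and Folr2 at 3.92, 29.2, 3.21 and 47.1 CPM in the 4 tumors. In Mrc1, Cd163, Clec10a and Folr2, vehicle replicate 7 and IL-33 replicate 3 were high and IL-33 replicates 4 and 8 were low, the reverse of the order for Ms4a1 and Mzb1. Fibroblast genes followed the same division, with Col1a1 at 168, 1609, 97.99 and 962 CPM and Postn at 11.2, 277, 6.75 and 70.2 CPM.

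Mast cell genes were higher at low levels. Of 16 genes tested of the type 2 response, eosinophils and mast cells 7 were higher, with a median log2 fold change of 1.69, and 1 of the 7 (Cma1) is also in the NK cell list. Cpa3, the mast cell carboxypeptidase, was at 3.57, 15.7, 2.43 and 2.79 CPM in the 4 tumors and from 0.212 to 3.01 CPM (median 0.847) in the 11 (log2 fold change 2.39 ± 0.53, adjusted p = 0.00987). Mcpt4, a mast cell chymase, was at 5.903, 25.6, 4.899 and 3.55 CPM and from 0 to 2.57 CPM (median 0.724) in the 11 (log2 fold change 3.42 ± 0.65, adjusted p = 0.00428). Vehicle replicate 7 was the highest in both, and without it 0 of the list were higher, as among the IL-33 tumors alone. Il33, the gene of the cytokine given to the treated mice, was at 224, 239, 384 and 189 CPM in the 4 tumors and from 155 to 958 CPM (median 434) in the 11 and did not pass (log2 fold change -1.07 ± 0.38, adjusted p = 0.0853). Its receptor Il1rl1 did not pass either (log2 fold change -0.14 ± 0.29, adjusted p = 0.81).

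Among neutrophil genes 0 of 15 were higher and 1 was lower, with a median log2 fold change of -0.47. Over all genes tested, 6.67% were higher and 4.71% lower, so that this count is near the share. The gene lower was Mmp8, the neutrophil collagenase, at 4.85, 2.12, 6.63 and 1.97 CPM in the 4 tumors and from 4.29 to 37.9 CPM (median 12.99) in the 11 (log2 fold change -2.74 ± 0.45, adjusted p = 0.00221), where vehicle replicate 2 at 4.29 CPM lay among the 4. S100a8 was at 10.1, 8.804, 17.1 and 8.36 CPM and from 7.16 to 105 CPM (median 14.5) in the 11 and did not pass (log2 fold change -1.43 ± 0.85, adjusted p = 0.315).

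Genes that glucocorticoid hormones induce were gathered in a list after values had been seen, since several stood among the 12 genes lower with the smallest p. Of its 17 genes 12 were lower and 0 higher, with a median log2 fold change of -1.75, which is a description. Tsc22d3, which encodes the glucocorticoid-induced leucine zipper GILZ, was at 74.3, 51.7, 75.5 and 57.5 CPM in the 4 tumors and from 65.4 to 375 CPM (median 186) in the 11 (log2 fold change -1.999). Klf9, a transcription factor induced by the same hormones, was at 44.5, 26.6, 47.4 and 33.1 CPM and from 31.2 to 123 CPM (median 108) in the 11 (log2 fold change -1.61 ± 0.25, adjusted p = 0.00179). Per1, a clock gene that they also induce, was at 71.4, 19.1, 72.6 and 32.5 CPM and from 50.4 to 211 CPM (median 112) in the 11 (log2 fold change -1.85 ± 0.31, adjusted p = 0.00239). In CPM the lowest of the 11 lay among the 4 tumors in each of these genes, which was vehicle replicate 2 for Tsc22d3 and vehicle replicate 4 for Klf9 and Per1. Of the 17 genes, 0 were separate downward in CPM and 2 after TMM scaling. Fkbp5, a co-chaperone of the receptor, was at 189, 92.95, 166 and 87.3 CPM and from 105 to 529 CPM (median 395) in the 11. The metallothionein Mt2 was at 699, 432, 909.6 and 543 CPM and from 521 to 6243 CPM (median 2729) in the 11, while the receptor gene Nr3c1 did not pass (log2 fold change -0.29). Of the 17 genes 8 were lower without vehicle replicate 7. Vehicle replicate 4 had the lowest CPM of the 11 in 509 of the 744 genes lower. These CPM values are without TMM scaling, which raises the levels of this tumor (factor 0.646).

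Other clock genes were lower with Per1. In a list of 12 clock genes, also made after values had been seen, 7 were lower and 0 higher, with a median log2 fold change of -1.31. Nr1d1 was at 15.3, 27.4, 14.1 and 21.3 CPM in the 4 tumors and from 24.6 to 217 CPM (median 71.01) in the 11, and Cry2 at 7.25, 6.52, 6.46 and 5.08 CPM and from 5.73 to 20.6 CPM (median 11.1) in the 11. Without vehicle replicate 7, 6 of the 12 were lower. The hour at which each tumor was taken is not given in the sources used here.

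Genes of glycolysis and hypoxia were lower in 4 of 20 tested and higher in 0, and all 20 fold changes lay below 0 (median -0.67, from -1.45 to -0.21). Slc2a1, the glucose transporter GLUT1, was at 179, 238, 246 and 286 CPM in the 4 tumors and from 171 to 977 CPM (median 505) in the 11 (log2 fold change -1.45 ± 0.37, adjusted p = 0.0204). Egln3, an oxygen-sensing prolyl hydroxylase, was at 54.9, 88.4, 70.5 and 104 CPM and from 64.2 to 294 CPM (median 157) in the 11 (log2 fold change -1.27 ± 0.36, adjusted p = 0.0333). Ndrg1 (log2 fold change -1.09 ± 0.34, adjusted p = 0.0498) and Ero1l (log2 fold change -1.25 ± 0.36, adjusted p = 0.0367) also passed. The classes overlapped in each of these genes. With 1 tumor left out, 0 members passed without vehicle replicate 7, IL-33 replicate 4 or IL-33 replicate 8. The count was 1 without IL-33 replicate 3, 5 or 6, and 8 without vehicle replicate 4. Gapdh, with a log2 fold change of -0.75, and Ldha, with -0.22, did not pass.

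Some keratin and matrix genes were lower. Krt20, a keratin of differentiated gastrointestinal epithelium, was at 0.76, 1.601, 0.206 and 1.04 CPM in the 4 tumors and from 1.104 to 80.9 CPM (median 30.4) in the 11 (log2 fold change -5.23), and the lowest of the 11, vehicle replicate 2, lay among the 4. Krt13, a keratin of stratified epithelium such as the forestomach, was at 0.526, 0.743, 0.782 and 0.492 CPM and from 1.29 to 8.76 CPM (median 2.47) in the 11, with no overlap. In a list of 18 genes of stratified epithelium made after values had been seen, 6 of 12 tested were lower and 0 higher (median log2 fold change -1.81), and without vehicle replicate 7 the count was 4. Of the 13 epithelial genes of the main lists 1 was lower, Krt8 (log2 fold change -1.42 ± 0.38, adjusted p = 0.0258), and 1 higher, Krt14, which did not exceed 1.26 CPM. Fn1, which encodes fibronectin, was at 1714, 896, 1854 and 1074 CPM and from 786 to 6127 CPM (median 4234) in the 11 (log2 fold change -1.81 ± 0.41, adjusted p = 0.0117). Msln, a marker of mesothelium that some carcinomas also express, was lower (log2 fold change -0.92 ± 0.26, adjusted p = 0.0303), the only 1 of 10 mesothelial genes.

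**Figure D4:**
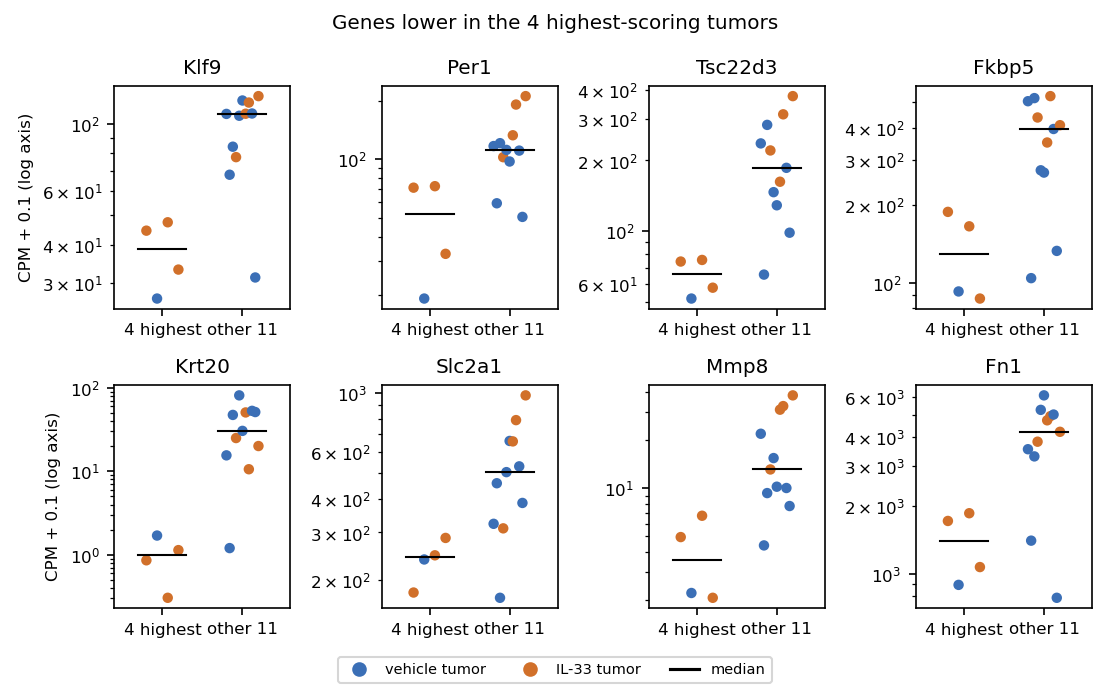
CPM plus 0.1 on a log axis for 8 genes in the 4 highest-scoring tumors and the other 11, drawn as for the genes higher, 1 point per tumor with the median as a line. In each gene at least 1 tumor of the 11 reaches down to the 4: vehicle replicate 4 for Klf9, Per1 and Fn1, vehicle replicate 2 for Tsc22d3, Fkbp5, Krt20 and Mmp8, and vehicle replicate 8 for Slc2a1.

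Most genes of the signalling and tissue lists did not pass, and their counts are to be read beside the shares over all genes. Of all genes tested, 6.67% were called higher and 4.71% lower. Of 16 genes of TGF-beta signalling and T cell exclusion 3 were higher (Tgfbi, Acta2 and Cxcl12) and 1 was lower (Tgfb3, log2 fold change -0.83 ± 0.22, adjusted p = 0.0234), with a median log2 fold change of 0.43 that was -0.22 with IL-33 replicate 7 included and -0.33 with the replicate number as a block. Of 12 Wnt targets 2 were higher (Lef1 and Tcf7l2), of which Lef1 is also a T cell gene, with a median of 0.19 that was -0.73 with IL-33 replicate 7 included, and Ctnnb1, which encodes beta-catenin, had a log2 fold change of 0.05. Of 18 collagen and fibroblast genes 1 was higher (Thy1, which mouse T cells also carry) and 1 lower (Fn1). Their median was 0.36 and turned negative in 4 of the other analyses. Of 18 endothelial genes 4 were higher (Pecam1, Kdr, Eng and Icam1), with a median of 0.61 that was -0.14 with IL-33 replicate 7 included, and without vehicle replicate 4 the count was 10. Of 22 proliferation genes 4 were higher (Aurka, Mcm5, Pcna and Tyms), with a median of 0.40, and Mki67 did not pass (0.11). The proliferation count was 0 without vehicle replicate 7 and 10 without vehicle replicate 4. Of 10 fat genes 1 was higher (Pparg), and no gene of the lists of muscle (9 tested), red cells (7), pancreas and liver (5) or the female reproductive tract (9) passed.

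**Figure D5:**
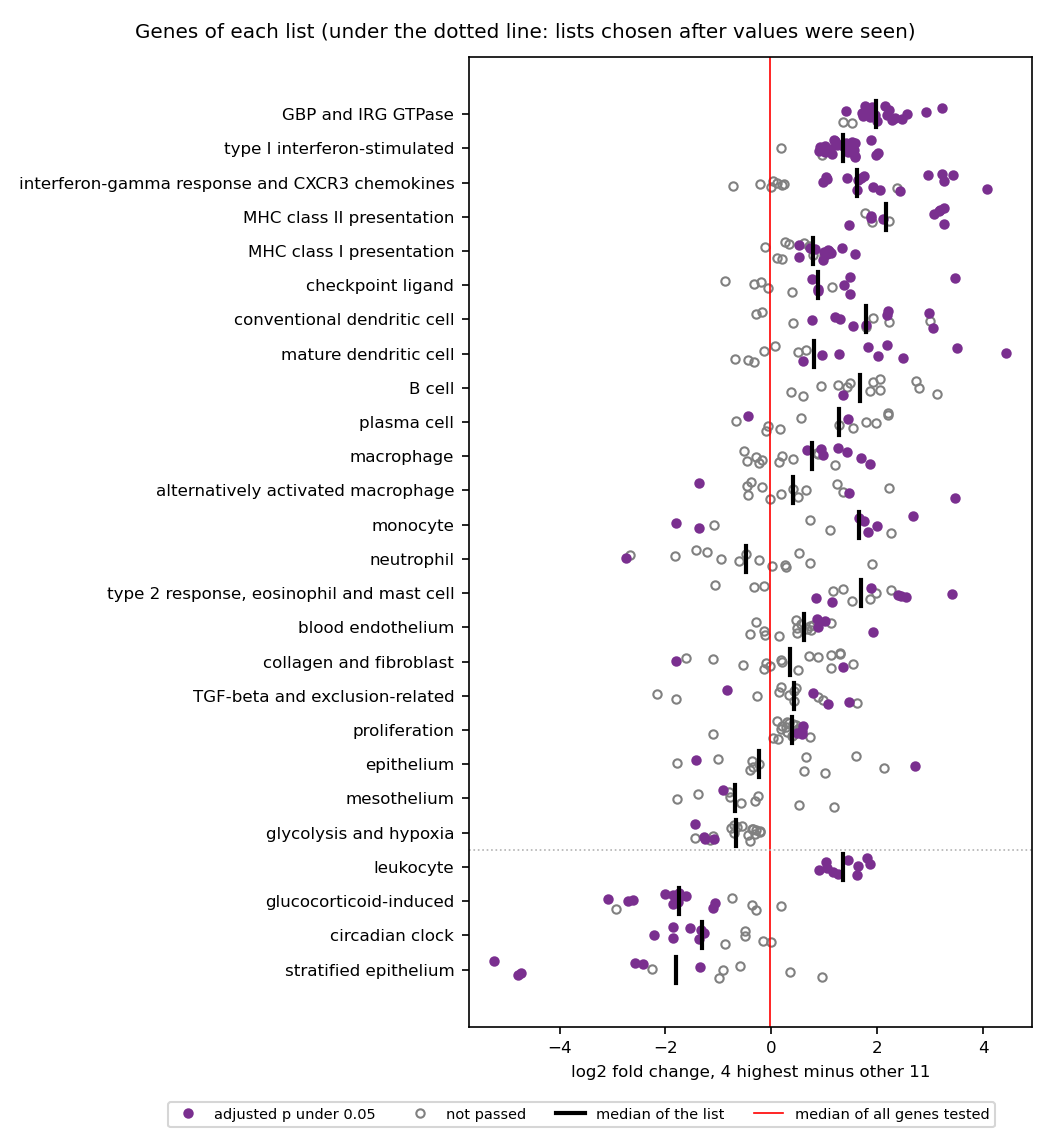
Log2 fold change of each tested gene (4 highest-scoring tumors minus the other 11) by list, with filled points for an adjusted p under 0.05, a black bar for the median of the list and a red line for the median of all genes tested (-0.02). The interferon and GTPase lists lie to the right with most points filled, and of the 4 lists under the dotted line, made after values had been seen, the lowest 3 lie to the left.

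The genes with the smallest p outside the lists came from several functions. Slfn5, a member of the interferon-inducible schlafen family (GRCm38 chr11:82951349-82964840, plus strand), was at 86.4, 83.3, 63.9 and 82.2 CPM in the 4 tumors and from 11.8 to 36.5 CPM (median 25.2) in the 11 (log2 fold change 1.70 ± 0.18, adjusted p = 0.00128). Ass1, the enzyme that makes argininosuccinate from citrulline, was at 15.1, 30.4, 12.6 and 21.1 CPM and from 1.84 to 10.6 CPM (median 3.33) in the 11 (log2 fold change 2.39 ± 0.29, adjusted p = 0.00128). Fgl2, a fibrinogen-like protein secreted by T cells and macrophages, was at 134, 122, 95.6 and 129 CPM and from 11.8 to 50.3 CPM (median 32.1) in the 11 (log2 fold change 1.84 ± 0.24, adjusted p = 0.00128). The cytokine receptors Il21r (log2 fold change 2.50 ± 0.34, adjusted p = 0.00128) and Il10ra (log2 fold change 1.79 ± 0.24, adjusted p = 0.00128) are carried mainly by leukocytes. Of the genes lower, Chrd, the BMP antagonist chordin, was at 10.1, 8.804, 10.05 and 7.705 CPM and from 8.06 to 26.8 CPM (median 21.2) in the 11 (log2 fold change -1.34 ± 0.21, adjusted p = 0.0019). Kremen1, a receptor of the Wnt inhibitor Dickkopf, was at 57.5, 53.1, 62.8 and 41.8 CPM and from 37.8 to 137 CPM (median 107) in the 11 (log2 fold change -1.18 ± 0.19, adjusted p = 0.00204). Mlph, which links Rab27a to myosin, was separate, at 2.81, 4.17, 3.29 and 2.13 CPM and from 6.25 to 18.9 CPM (median 9.67) in the 11 (log2 fold change -1.76 ± 0.27, adjusted p = 0.00179).

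The difference between the classes was compared between treatments, with 1 highest-scoring tumor among vehicle tumors and 3 among IL-33 tumors, so that the lone vehicle tumor was taken to vary like the others. In the interaction of class and treatment 0 of 15797 genes passed in edgeR (smallest adjusted p = 0.504), with 248 at an unadjusted p under 0.05, and DESeq2 called 2. The treatment term of the same model called 0 of 15803 genes in edgeR (smallest adjusted p = 0.736), with 1037 at an unadjusted p under 0.05. Among the IL-33 tumors alone, 3 against 4, 813 genes were higher and 637 lower, and 664 of the 1054 and 461 of the 744 were among them.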

How the data were processed

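RNA sequencing counts per gene were deposited for 16 tumors. Per the submitters' processing notes, the authors aligned reads to mm10 with HISAT2 and counted them with featureCounts; versions and strand settings are not given in the sources used here, so overlapping, antisense and near-identical genes are uncertain. The deposited counts were used without change, for 22298 genes. The 43 genes without a symbol (0.00434% of counts) stayed in the library sizes and were open to the tests.

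Tumors were scored and divided as described in the report, and genes with at least 10 counts over 15 tumors were tested with edgeR 4.0.16 (TMM, quasi-likelihood test, treatment as covariate, Benjamini-Hochberg, R 4.3.3). Standard errors are of the log2 fold change, and the steps were tested on simulated data. DESeq2 1.42.0, limma 3.58.1 (voom with sample quality weights), upper-quartile factors, other count filters, no treatment term, the score as a number, the replicate number as a block and each tumor left out were alternatives. The IL-33 tumors alone, and the removal of vehicle replicates 2 and 4 together, were added after the data were seen. Fisher's test used scipy 1.17.1, and the score permutations were enumerated directly in Python 3.11.15. Total counts between 14139268 and 24290794 limit the precision of genes with few reads, and no fold was taken against a class at 0. Members and gene lists were chosen with earlier results of these data known. Genes were named from the gene lists and, outside the T and NK cell lists, as the 12 with the smallest p in each direction among those with an adjusted p under 0.05 and a log2 fold change above 1 or below -1. Gene positions are from GENCODE and promoters from RefSeq, both on GRCm38, the assembly also called mm10. Some genes of the lists are not reported here.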

Additional observations from a re-analysis of the deposited data

Results flagged for a closer look

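Within a treatment group, the highest or lowest tumor was set apart where its gap to the next, as a share of the range of the group, was above Dixon's 95% critical value. Chance does this in about 1 in 20 groups of values that were not selected. Among the 8 vehicle tumors, vehicle replicate 7, the only vehicle tumor among the 4 highest-scoring, stood above the others in 13 genes. Many of the genes examined were named from the comparison in which this tumor is one of the 4, so its place above the other vehicle tumors follows in part from that choice. For myeloid genes it had 829.3 CPM of Lyz2 (lysozyme; vehicle median 351), 108 of Fcgr1 (median 35.5), 95.4 of Ly6c2 (median 16.6), 112 of Cyth4 (median 35.0), 159 of Ctsh (median 60.4) and 29.4 of Sema4a (median 11.4). For cytokines it had 1.31 CPM of Il12b (median 0.0247), 3.14 of Ccl22 (median 0.153), a chemokine of mature dendritic cells, and 3.83 of Il10 (median 1.06). For Mcpt4 it had 25.6 CPM (median 1.14), for Thy1 72.6 CPM (median 19.5), for Eng 57.5 CPM (median 31.4) and for Krt14 1.26 CPM (median 0.206).

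Vehicle replicate 2 stood above the other vehicle tumors in the B cell gene Ms4a1, which encodes CD20, at 10.2 CPM (median 0.211). Vehicle replicate 4 was the lowest vehicle tumor for Adgre1 (9.48 CPM, median 52.5), Clec9a (0.707, median 2.87), Ifngr1 (18.5, median 52.8), Jak2 (20.7, median 56.7), Ctnnb1 (128, median 475), Nr3c1 (19.7, median 94.1), Mki67 (135, median 282) and Kdr (3.25, median 15.96). The same tumor was the highest for the neutrophil gene S100a8, at 105 CPM (median 12.3). These levels are without TMM scaling, which raises those of vehicle replicate 4 (factor 0.646). Among the 7 IL-33 tumors, IL-33 replicate 6 was the lowest for Ctnnb1, at 327 CPM, and IL-33 replicate 1 the lowest for Il1rl1, at 395 CPM.

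In IL-33 replicate 7, which took no part in the comparison, genes of the female reproductive tract summed to 2047 CPM, against at most 122 CPM in the vehicle tumors.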

How the results depend on the processing

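The counts of 1054 genes higher and 744 lower changed in size, and some genes changed direction. DESeq2 called 1378 genes lower, voom 2361 higher and 2000 lower, and the fit with IL-33 replicate 7 among the other tumors 501 and 240, 51 of the genes called before having turned sign and the median of all genes at -0.16. Without vehicle replicates 2 and 4 together the counts were 2263 and 1977. Upper-quartile factors, either other filter, no treatment term, the score as a number and the IL-33 tumors alone gave 813 to 1332 higher and 550 to 1108 lower. Leaving out 1 tumor at a time gave 435 to 2019 genes higher and 232 to 1878 lower, the extremes without vehicle replicate 7 and vehicle replicate 4. The cause of these shifts was not tested. The fit with the replicate number as a block, which leaves fewer degrees of freedom, called 0 higher and 0 lower (1864 genes at an unadjusted p under 0.05), and 7 of the genes called before turned sign. The labels do not tie same-numbered tumors together, and their correlations of -0.40 to 0.35 over 7 pairs, with 1 IL-33 tumor closest to its own number, show only a shared number. With the block the score differed by 0.519 between treatments (exact sign flips, p = 0.4375). For class by treatment DESeq2 called 2 genes, Gm43951 and 4933427D14Rik, where edgeR called 0.

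Of 123 genes examined one by one, 99 were called, of which 38 lost their call without vehicle replicate 7, 35 with IL-33 replicate 7 included and 99 with the block. Log2 fold changes turned sign with IL-33 replicate 7 included for Acta2 (-0.60), Lef1 (-0.36), Eng (-0.083), Cxcl12 (-0.049), Ctnnb1 (-0.017) and Il1rl1 (0.11), and with the block for Acta2 (-0.50), Oasl1 (-0.21), Arg1 (0.83), Il1rl1 (0.76), Nr3c1 (0.33) and Nos2 (0.085). They did so with the score as a number for Oasl1 (-0.071) and Clec9a (0.019), and among IL-33 tumors alone for Il1rl1 (0.11). With 1 tumor left out at a time the range crossed 0 for Il1rl1 (-0.31 to 0.13), Cd163 (-0.75 to 0.090) and Mki67 (-0.015 to 0.29). Folds of genes at a few reads per library, such as Il12b, are imprecise at this depth.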

Other observations

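IL-33 replicate 7, left out of the comparison, had a T cell score of 1.66, Ptprc at 55.0 CPM and Cxcl9 at 7.29 CPM, all within the range of the 11 tumors. Its Msln level, 92.5 CPM, was below that of all 15 tumors compared.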
